A study of Homo sapiens and Mus musculus with 13 samples.

Results

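The double knockdown lines of the human triple-negative breast cancer cell line MDA-MB-231 were compared with the TRIM11 knockdown lines that carry the same TRIM11 guide. They are 4 of the 13 RNA-Seq libraries of the series: TRIM11-KD1 with TRIM11 sgRNA1, TRIM11-KD2 with TRIM11 sgRNA2, DKD1 with TRIM11 sgRNA1 plus KDM5C sgRNA2, and DKD2 with TRIM11 sgRNA2 plus KDM5C sgRNA2. Pair 1 is DKD1 against TRIM11-KD1 and pair 2 is DKD2 against TRIM11-KD2, so within a pair the labelled difference is KDM5C guide 2. The other cell line libraries, used as background, were 1 Control line with a GFP sgRNA, KDM5C-KD1 with KDM5C sgRNA1 and KDM5C-KD2 with KDM5C sgRNA2, and the 6 mouse tumor libraries were not used. All 7 lines were made with the lentiviral Cas9 and guide vector pLenti-v2-Cas9-gRNA, selected with puromycin and kept as stable lines. The labels do not say whether a DKD line was made from its TRIM11-KD line or whether lines were separate cultures. The p-values therefore measure only the spread between these samples, which may be technical. In limma's test of DKD against TRIM11-KD, that spread is between the lines of each group, which differ in a guide. It also takes in KDM5C-KD1 against KDM5C-KD2 and leaves the pairing by TRIM11 guide unused. The unit is FPKM, fragments scaled by transcript length and library size, and of 24523 gene symbols, the 11726 that averaged 1 FPKM or more across these 4 libraries were tested. Where 2 values follow each other for a group, the first is line 1 and the second line 2. A gene was counted as higher or lower when DKD was at least 1.5 times above, or at least 1.5 times below, TRIM11-KD in both pairs.

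KDM5C is a demethylase that removes methyl groups from lysine 4 of histone H3, a mark of active promoters and, in its monomethylated form, of enhancers. TRIM11 is a RING-type ubiquitin E3 ligase, a class of enzyme that attaches ubiquitin to other proteins and can send them to the proteasome. The study examined TRIM11 as a ligase for KDM5C, and in that setting the DKD lines ask which expression differences remain tied to KDM5C once TRIM11 is already targeted.

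The targeted genes were read first. KDM5C (chromosome X, 53205465 to 53254604 in hg19) had 29.8 FPKM in TRIM11-KD1, 28.4 in TRIM11-KD2, 18.8 in DKD1 and 22.7 in DKD2. Both DKD libraries were below both TRIM11-KD libraries, near the 20.6 and 21.4 of the KDM5C-KD libraries, while Control had 30.3. In limma over the 6 knockdown libraries the difference was -0.47 on the log2(FPKM + 1) scale (SE 0.13, unadjusted p = 0.0107, adjusted p = 0.683 by the Benjamini-Hochberg method). TRIM11 (chromosome 1, 228581374 to 228594536) had 13.4 FPKM in TRIM11-KD1, 10.6 in TRIM11-KD2, 16.1 in DKD1, 9.38 in DKD2 and 12.6 in Control. Its mRNA was not below Control in all 4 libraries labelled with a TRIM11 guide, and the 2 groups overlapped. These levels therefore do not check the TRIM11 labels, and the libraries are called here as labelled.

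FPKM totals lay between 493543 and 513462, and the value of 1 read in low genes put the depth of the 4 libraries between 0.868 and 1.13 times that of Control, while the absolute depth is unknown. The mesenchymal markers VIM, CD44, CAV1, ZEB1, AXL and MSN were present in all 4 libraries, VIM at 1056 to 1309 FPKM, and SPARC was low at 0.265 to 0.533. The hormone receptor genes ESR1 (at most 0.0234 FPKM) and PGR (listed at 0) were absent or nearly so. Of the leukocyte markers, PTPRC was at most 0.223 and CD3E at most 0.0401, while CD68 was at 65.6 to 87.1 FPKM. The 3 endothelial markers were under 1 FPKM. Of the 4 fibroblast markers DCN was listed at 0, LUM was at most 0.595, COL1A1 was at 1.33 to 1.90, and PDGFRB was at 10.6 and 7.53 FPKM in TRIM11-KD and 6.42 and 5.70 in DKD, without overlap. Of 6 luminal or epithelial markers tested, 4 were above TRIM11-KD without overlap in DKD (EPCAM, GATA3, KRT18 and ERBB2), as 22.3% of all genes tested were. Of these, 3 had an unadjusted p under 0.05 in limma. KRT8 overlapped, at 393 and 458 FPKM in TRIM11-KD and 446 and 622 in DKD. CDH1 went from 1.98 down to 0.615 in pair 1 and from 1.19 up to 1.62 in pair 2. The medians of the 6 markers were 0.30 in pair 1 and 0.38 in pair 2. KRT18 was at 321 and 342 FPKM in TRIM11-KD and 407 and 435 in DKD, and GATA3 at 6.08 and 5.81 against 8.92 and 8.07. In bulk RNA, a larger share of cells that express a gene and more RNA per cell cannot be told apart.

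Of the 11726 genes, 210 (1.79%) were higher and 207 (1.77%) lower in DKD in both pairs. Pair 1 alone had 817 higher (6.97%) and 766 lower (6.53%) genes, and pair 2 had 478 higher (4.08%) and 493 lower (4.2%). The genes shared by both pairs made up 25.7% of the higher genes of pair 1 and 43.9% of those of pair 2, and 27.0% and 42.0% of the lower genes. Another 91 genes passed 1.5-fold in opposite directions, 38 of them higher in pair 1 and 53 higher in pair 2. Across genes, which are not independent replicates, the log2 differences of the pairs correlated with r = 0.279, and their SD was 0.457 in pair 1 and 0.347 in pair 2. Of the 210 higher genes, 172 had both DKD libraries above both TRIM11-KD libraries, as 22.3% of all genes tested had, and of the 207 lower genes, 160 had both below, as 19.3% of all genes had. Since 1.5-fold in both pairs chose these genes, that separation is a description.

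No single protein-coding gene passed limma's test after adjustment. The only gene with an adjusted p under 0.05 (0.00853% of those tested) was SNORA4, a small nucleolar RNA with 30.6 and 69.1 FPKM in TRIM11-KD and listed at 0 in both DKD libraries. It was also listed at 0 in Control and both KDM5C-KD libraries, and mature snoRNAs carry no poly(A) tail, the feature by which these libraries were selected. At an unadjusted p under 0.05 there were 453 higher (3.86%) and 392 lower (3.34%) genes, among them 107 of the 210 and 107 of the 207. With a ratio of group means of at least 1.5 as well, as the study's own rule combines fold and p, 188 were higher (1.6%) and 182 lower (1.55%). Without TRIM11-KD1 these became 86 and 71, and without TRIM11-KD2 they became 350 and 296. The adjusted p of the other genes past 1.5-fold in both pairs lay between 0.592 and 0.938. An exact permutation test of 2 libraries against 2 cannot give a p under 0.333. So the differences named hereafter are sizes that repeated in both pairs, and none of them passed the adjusted test of DKD against TRIM11-KD.

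**Figure D1:**
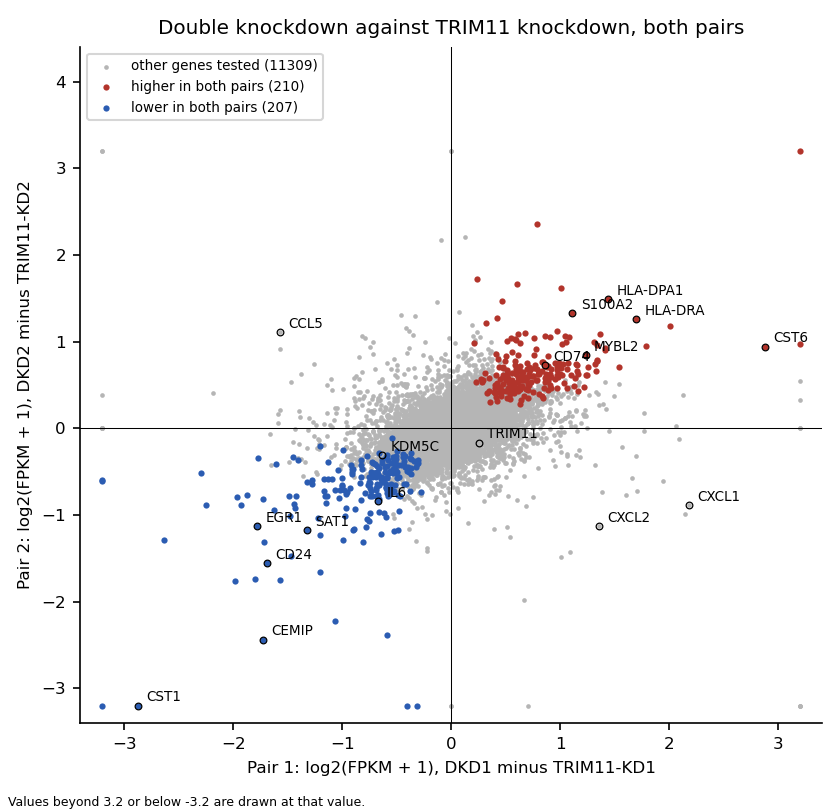
Each point is 1 of the 11726 genes tested, placed by its difference in pair 1 (x axis, DKD1 minus TRIM11-KD1) and in pair 2 (y axis, DKD2 minus TRIM11-KD2), both on the log2(FPKM + 1) scale with 1 library per side. The 210 genes higher and the 207 lower by at least 1.5-fold in both pairs are coloured, with HLA-DPA1 among the upper ones and CD24, CEMIP and EGR1 among the lower ones.

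Genes of the MHC class II pathway stood together among the higher genes. Class II molecules are pairs of alpha and beta chains that present peptides from the endosome to CD4+ T cells, the invariant chain CD74 guides them there, HLA-DM loads the peptide, and the transactivator CIITA, acting with the RFX factors at class II promoters, drives their transcription. A list of 17 genes of this pathway was chosen after their values were seen and carries no test. Of its 11 tested members 7 were higher in both pairs (CD74, HLA-DRA, HLA-DRB1, HLA-DPA1, HLA-DPB1, HLA-DMA and HLA-DMB), none was lower, and 8 had both DKD libraries above both TRIM11-KD libraries. Over all genes tested 1.79% were higher in both pairs and 22.3% had both DKD libraries above. The median log2 difference of the 11 genes was 0.84 in pair 1 and 0.67 in pair 2, against 0.01 and 0.02 over all genes tested.

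HLA-DPA1, the alpha chain of HLA-DP (chromosome 6, 33032346 to 33048552), had 5.57 FPKM in TRIM11-KD1, 4.14 in TRIM11-KD2, 16.8 in DKD1 and 13.4 in DKD2. It was 3.01 times and 3.24 times higher in DKD, both DKD libraries were above both TRIM11-KD libraries, and limma gave a log2 difference of 1.46 (SE 0.48, unadjusted p = 0.022, adjusted p = 0.683). HLA-DRA, the alpha chain of HLA-DR, had 2.1 and 1.78 FPKM in TRIM11-KD and 9.05 and 5.68 in DKD. Again the groups did not overlap, with folds of 4.31 and 3.19. CD74 was the most abundant of the set with 131 FPKM in TRIM11-KD1, 126 in TRIM11-KD2, 238 in DKD1 and 210 in DKD2. Its DKD libraries were 1.82 and 1.66 times higher (log2 difference 0.80, SE 0.44, unadjusted p = 0.119, adjusted p = 0.709 in limma). That SE also takes in the KDM5C-KD lines, where CD74 was at 110 and 38.3 FPKM. With only the 4 libraries of both pairs the SE was 0.12. HLA-DMA had 5.89 and 6.13 FPKM in TRIM11-KD against 9.68 and 10.8 in DKD, also without overlap.

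The remaining class II genes were low. HLA-DPB1, the beta chain of HLA-DP, had 0.445 and 0.637 FPKM in TRIM11-KD and 1.82 and 1.61 in DKD. HLA-DRB1 had 0.669 and 0.365 in TRIM11-KD and 1.98 and 1.33 in DKD, and its reads can be split with other HLA-DRB genes, so its level is uncertain. CIITA itself was under the limit of 1 FPKM and was not tested, with 0.407 and 0.534 FPKM in TRIM11-KD and 1.24 and 1.37 in DKD. All of these genes were higher in both DKD libraries than in either TRIM11-KD library. The RFX subunits RFX5, RFXAP and RFXANK did not reach 1.5-fold in both pairs, and RFX5 was at 22.2 and 24.8 FPKM in TRIM11-KD and at 28.4 and 25.5 in DKD. In a wider list of antigen presentation genes that includes class I, 5 of 21 tested members were higher and 0 lower, and its median was -0.07 in each pair. The 5 were CD74, HLA-DRA, HLA-DRB1, HLA-DPA1 and HLA-DMA, and none of the class I genes HLA-B, HLA-C, HLA-E, HLA-F and B2M was among them.

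The promoters of class II genes share a Y box, the letters TGATTGG or CCAATCA on the other strand, next to the X box bound by RFX. The 200 bases before the start of the canonical transcript were read from hg19 for 2 higher genes that hold the box, to show where it lies, with the box in capitals. HLA-DRB1 is read from chr6:32557626-32557825 and HLA-DMA from chr6:32920875-32921074, both on the minus strand and 5′ to 3′.
HLA-DRB1: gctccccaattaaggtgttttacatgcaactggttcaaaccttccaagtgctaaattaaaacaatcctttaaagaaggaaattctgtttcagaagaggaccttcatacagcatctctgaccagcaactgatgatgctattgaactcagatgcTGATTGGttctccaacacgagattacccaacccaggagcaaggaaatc
HLA-DMA: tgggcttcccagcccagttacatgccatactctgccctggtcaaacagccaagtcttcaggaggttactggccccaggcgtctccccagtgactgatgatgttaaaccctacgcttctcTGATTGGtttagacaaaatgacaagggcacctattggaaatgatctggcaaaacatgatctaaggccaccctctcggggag
The box began 48 bases before the start in HLA-DRB1 and 81 in HLA-DMA. Of the 7 higher class II genes, 3 held the box in these 200 bases, and only the exact letters were searched. For HLA-DPA1 these bases (chr6:33048488-33048687) lie beyond the annotated start of HLA-DPB1, which is read on the other strand. They may therefore not be the HLA-DPA1 promoter. The box was in 7.94% of 19845 protein-coding promoters of this length and in 8.34% of the 10119 promoters of tested genes. Among all higher genes with a promoter it was in 7.56% of 172, and among lower genes in 9.52% of 168. A match of letters is a description and not a bound site.

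**Figure D2:**
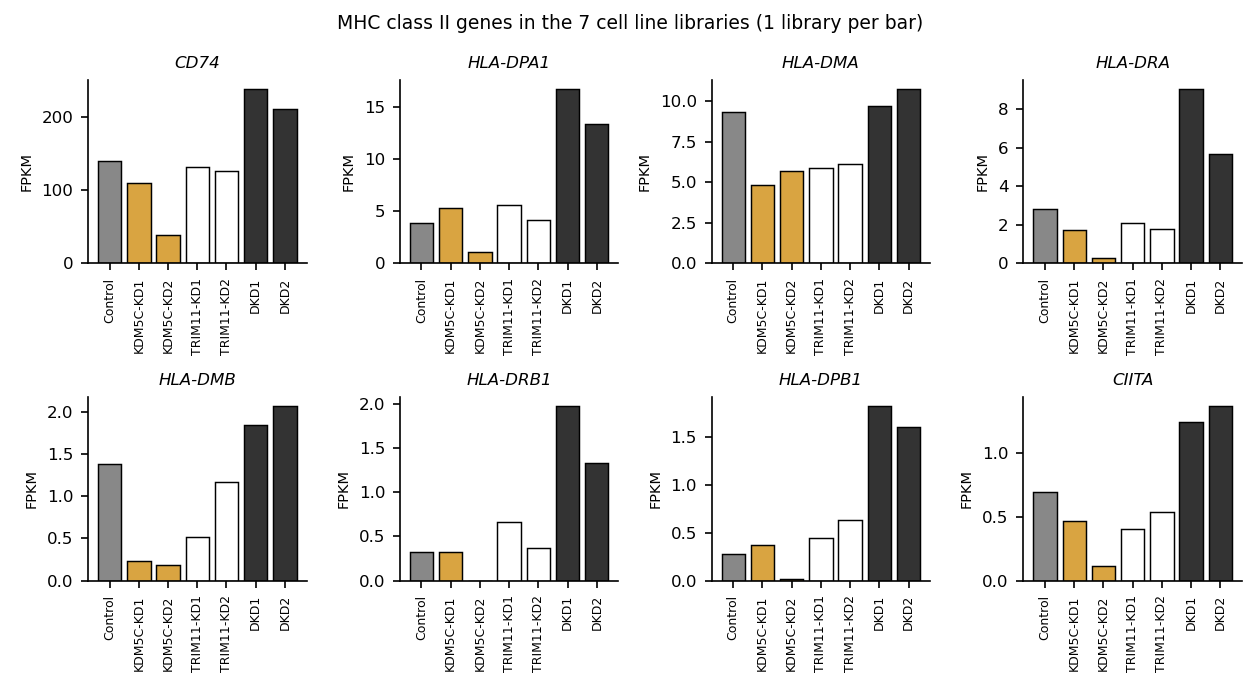
FPKM (y axis, linear from 0) of MHC class II genes in each of the 7 cell line libraries, 1 library per bar, with no error bars because a bar is 1 library. For HLA-DPA1 the bars of DKD1 (16.8) and DKD2 (13.4) stood above those of TRIM11-KD1 (5.57) and TRIM11-KD2 (4.14), and the bar of KDM5C-KD2 (1.13) was the lowest.

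Genes of DNA replication were also higher. The MCM2 to MCM7 proteins form the ring that unwinds DNA ahead of the fork, CDC45 and MCM10 activate it, TYMS makes thymidylate, and UHRF1 and CDCA7 act in copying DNA methylation. A list of 46 replication genes was chosen after their values were seen and so carries no test. Of these, 9 were higher in both pairs, against 1.79% of all genes tested, and 0 were lower. Both DKD libraries were above both TRIM11-KD libraries in 31 of 46 (67.4%), against 22.3% of all genes. Above 0 in both pairs were 42, against 37% of all genes. The median log2 difference was 0.48 in pair 1 and 0.39 in pair 2. RPA2 was the 1 gene below 0 in both pairs. A shorter cell cycle and proliferation list had 5 of 30 tested members higher (MCM4, MCM5, MCM6, TYMS and E2F2) and 0 lower, with medians of 0.37 and 0.26, and the mitotic genes TOP2A, CCNB1 and AURKA did not reach 1.5-fold in both pairs.

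MCM6 had 20.2 FPKM in TRIM11-KD1, 33.0 in TRIM11-KD2, 40.0 in DKD1 and 56.3 in DKD2. MCM5 had 23.8 and 38.8 FPKM in TRIM11-KD and 48.5 and 60.3 in DKD. In both genes the 2 TRIM11-KD libraries differed from each other, TRIM11-KD2 being the higher, yet both stayed below both DKD libraries, and the log2 difference was 0.85 (SE 0.27) for MCM6 and 0.81 (SE 0.28) for MCM5. CDC45 went from 13.6 and 17.6 FPKM in TRIM11-KD to 21.9 and 27.9 in DKD. TYMS had 46.7 and 83.4 in TRIM11-KD and 82.2 and 130 in DKD, so its groups overlapped although each pair passed 1.5-fold. MYBL2, a transcription factor of the S and G2 phases, had 17.5 and 22.6 FPKM in TRIM11-KD and 42.5 and 41.3 in DKD. CDCA7 had 6.73 and 12.6 in TRIM11-KD and 18.6 and 22.2 in DKD, and both genes separated the groups.

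E2F factors, which drive the entry into S phase, bind the letters TTTCCCGC, TTTCGCGC, TTTGCCGC or TTTGGCGC, here searched on both strands with overlapping matches counted. The promoters of 2 of these higher genes, each the 200 bases before the start in hg19, are shown to place the matches, which are in capitals. MCM6 is read from chr2:136634014-136634213 on the minus strand and MCM5 from chr22:35795933-35796132 on the plus strand.
MCM6: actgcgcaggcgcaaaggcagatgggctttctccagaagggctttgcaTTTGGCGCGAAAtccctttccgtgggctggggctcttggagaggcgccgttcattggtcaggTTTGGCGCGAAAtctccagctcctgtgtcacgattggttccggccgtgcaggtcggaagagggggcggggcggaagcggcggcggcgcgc
MCM5: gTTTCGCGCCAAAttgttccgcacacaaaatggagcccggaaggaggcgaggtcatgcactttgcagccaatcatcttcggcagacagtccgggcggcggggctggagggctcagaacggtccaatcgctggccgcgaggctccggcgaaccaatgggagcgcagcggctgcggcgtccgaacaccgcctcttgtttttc
MCM6 held 4 matches, in 2 overlapping pairs, and MCM5 held 2 that overlap, whose first bases lay 199 and 195 bases before the start. Of the 46 replication genes 15 (32.6%) had a match, and of the 9 higher ones 5 had (MCM5, MCM6, TYMS, UHRF1 and CDCA7). The share was 3.07% of all protein-coding promoters and 3.88% of those of tested genes. Among the genes with a promoter it was 13 of 172 higher (7.56%) and 3 of 168 lower genes (1.79%). The 13 include the 5 replication genes just named, so the 2 shares overlap.

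The 15 higher genes with the largest smaller difference of the 2 pairs, among those with a mean of at least 5 FPKM, were of several kinds. S100A2, a calcium-binding protein of epithelial cells, had 12.5 FPKM in TRIM11-KD1, 10.1 in TRIM11-KD2, 28.2 in DKD1 and 27.0 in DKD2. The libraries of a group were close to each other and the groups were apart (log2 difference 1.22, SE 0.16, unadjusted p = 0.000236, adjusted p = 0.683 in limma). CRABP2, which carries retinoic acid to its nuclear receptor, had 3.03 and 3.15 FPKM in TRIM11-KD and 8.99 and 7.31 in DKD. PKP3, a plakophilin of the desmosome, had 7.40 and 7.35 in TRIM11-KD and 14.5 and 13.9 in DKD. ABI3BP, a protein of the extracellular matrix, had 4.18 and 3.90 in TRIM11-KD and 8.70 and 9.19 in DKD. For these 4 genes the difference between the groups was larger than that between libraries of a group. The epithelial adhesion gene EPCAM lay with them, at 5.0 and 6.77 FPKM in TRIM11-KD and 12.3 and 12 in DKD. Beside these genes stand the 8 luminal or epithelial markers, of which 1 was higher in both pairs. Their summed FPKM was 746 and 834 in TRIM11-KD and 896 and 1102 in DKD. KRT8 and KRT18 made up most of that sum, and its part in these differences was not tested.

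Other genes of this group varied between guides. CST6, cystatin E/M, an inhibitor of cysteine proteases, had 7.07 and 9.09 FPKM in TRIM11-KD but 58.4 in DKD1 and 18.4 in DKD2, which is 8.26 times and 2.02 times. TNC, the matrix protein tenascin C, had 2.45 and 5.0 in TRIM11-KD and 6.17 and 11 in DKD. SH3BGRL had 16 and 7.17 in TRIM11-KD and 33.1 and 24.0 in DKD. These 3 kept the groups apart. MAGEC2, a cancer-testis antigen that is normally expressed in germ cells, did not, with 1.11 FPKM in TRIM11-KD1, 22.6 in TRIM11-KD2, 7.51 in DKD1 and 52.4 in DKD2. PTGFRN, a tetraspanin partner at the cell surface, was at 1.53 and 7.53 in TRIM11-KD and at 7.70 and 15.5 in DKD. FAM129A, GCHFR and the noncoding LINC00467 complete the 15, at 1.79 to 3.27 times TRIM11-KD in each pair.

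**Figure D3:**
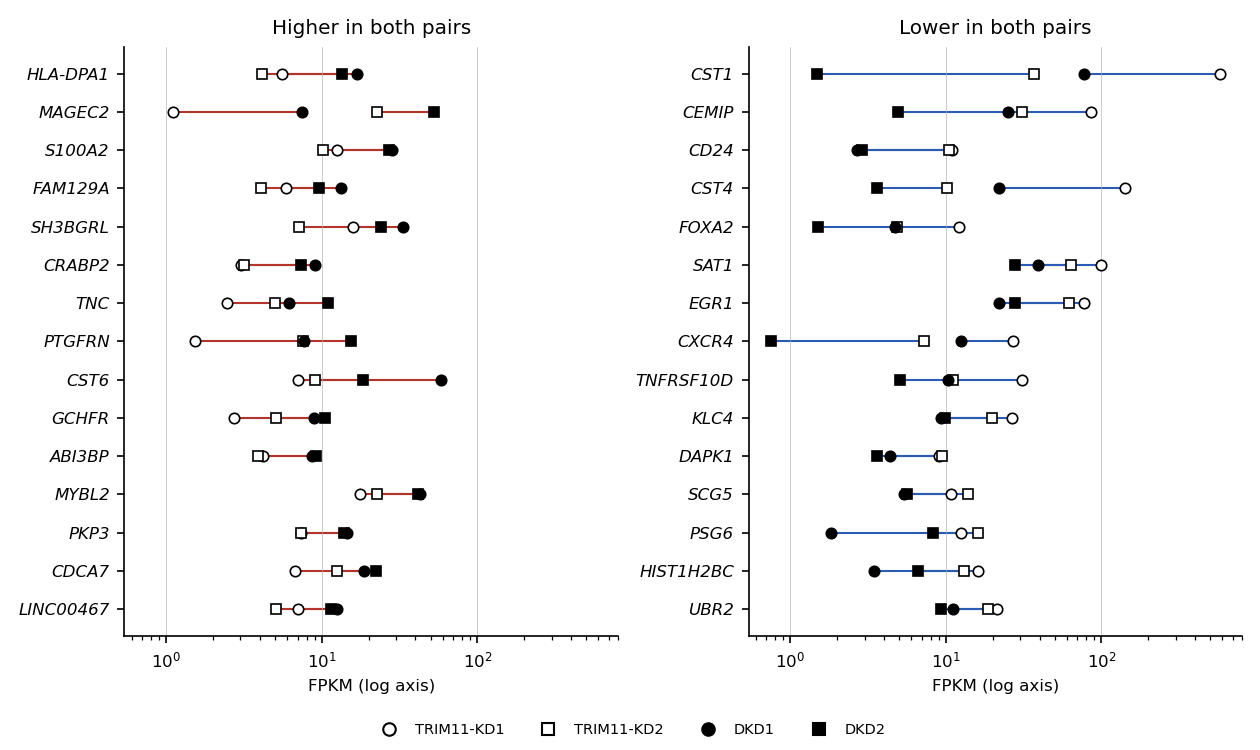
FPKM on a log axis (x) of the 15 genes higher (left) and the 15 genes lower (right) in both pairs, 1 point per library, for TRIM11-KD1, TRIM11-KD2, DKD1 and DKD2. Most genes separate the 2 groups, as S100A2 does with 10.1 to 12.5 in TRIM11-KD and 27.0 to 28.2 in DKD, while MAGEC2, CST1, CST4 and CXCR4 overlap.

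Among the 15 lower genes, the 2 secreted cystatins CST1 and CST4 had the widest range. CST1, cystatin SN (chromosome 20, 23728199 to 23731905), had 575 FPKM in TRIM11-KD1, 37 in TRIM11-KD2, 77.7 in DKD1 and 1.49 in DKD2. It was 7.39 times and 24.8 times lower within the pairs, but the lines of each group also differed, so that DKD1 was above TRIM11-KD2 and limma's SE of 2.29 was large beside the difference of -3.4. CST4 had 142 and 10.2 in TRIM11-KD and 22.0 and 3.60 in DKD, with the same overlap. Both lie in 1 cluster of near-identical genes, whose reads can be split between copies. In the cystatin list 1 of 7 tested genes was higher (CST6) and 2 lower, against 1.79% and 1.77% of all genes tested.

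CEMIP, a hyaluronan-binding protein linked to cell migration, had 85.7 FPKM in TRIM11-KD1, 31.0 in TRIM11-KD2, 25.2 in DKD1 and 4.90 in DKD2. CD24, a sialoglycoprotein whose low level is a textbook trait of breast cancer stem-like cells, had 10.9 and 10.4 in TRIM11-KD and 2.69 and 2.90 in DKD, that is 4.05 times and 3.60 times lower. SAT1, which acetylates spermidine and spermine for their breakdown, had 99.5 and 63.9 in TRIM11-KD and 39.2 and 27.7 in DKD. In all 3 genes both DKD libraries were below both TRIM11-KD libraries, and for SAT1 the log2 difference was -1.25 (SE 0.32, unadjusted p = 0.0074, adjusted p = 0.683 in limma). FOXA2, a forkhead factor of endoderm, had 12.2 and 4.87 in TRIM11-KD and 4.74 and 1.5 in DKD. SCG5, a secretory granule chaperone, had 10.8 and 13.9 in TRIM11-KD and 5.35 and 5.66 in DKD, close to the 5.11 of Control. TNFRSF10D, a decoy receptor for the death ligand TRAIL, had 30.8 and 11.2 in TRIM11-KD and 10.4 and 5.04 in DKD. The groups were apart in these genes too, by a narrow margin in FOXA2 and TNFRSF10D.

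EGR1, a zinc finger factor induced within minutes by growth signals, had 77.4 FPKM in TRIM11-KD1, 62.2 in TRIM11-KD2, 21.8 in DKD1 and 27.9 in DKD2. It was 3.55 times and 2.23 times lower in DKD, without overlap (log2 difference -1.46, SE 0.49, unadjusted p = 0.0246, adjusted p = 0.683 in limma). In a list of immediate early genes chosen after its value was seen, EGR1 was the only 1 of 19 tested genes past 1.5-fold in both pairs, and 10 were below 0 in both, as 31.9% of all genes were. JUNB was at 68.3 and 44 FPKM in TRIM11-KD and at 47.2 and 29.7 in DKD, while MYC was at 156 and 157 against 164 and 146. DAPK1, a calmodulin-regulated kinase that promotes cell death, had 9.06 and 9.42 in TRIM11-KD and 4.4 and 3.61 in DKD.

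Beyond the 15, 4 more lower genes were chosen after their values were seen. NPC1, which exports cholesterol from lysosomes, had 94.0 and 80.5 FPKM in TRIM11-KD and 47.8 and 47.1 in DKD (log2 difference -0.86, SE 0.12, unadjusted p = 0.000357). SLC17A5, the lysosomal sialic acid transporter, had 38.1 and 31.9 in TRIM11-KD and 18.3 and 19.1 in DKD. KIRREL3, an adhesion protein of the immunoglobulin family, had 3.15 and 3.18 in TRIM11-KD and 0.397 and 0.237 in DKD. SPOCK1, a matrix proteoglycan, had 7.17 and 3.47 in TRIM11-KD and 1.07 and 0.320 in DKD. All 4 were lower in both DKD libraries than in either TRIM11-KD library.

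The study examined inflammatory genes, and here the pairs went apart. Of 22 tested cytokines and chemokines 1 was higher and 3 lower in both pairs, against 1.79% and 1.77% of all genes tested. The median log2 difference was 0.37 in pair 1 and -0.44 in pair 2, against 0.01 and 0.02 over all genes. CXCL8, a chemokine for neutrophils, had 54.4 FPKM in TRIM11-KD1 and 110 in DKD1 but 42.0 in TRIM11-KD2 and 14.4 in DKD2. CXCL1 had 7.51 in TRIM11-KD1 and 37.5 in DKD1 but 3.85 in TRIM11-KD2 and 1.63 in DKD2. CXCL2 had 35.4 and 91.8 in pair 1 and 25.2 and 11 in pair 2. For these genes, as for CXCL3 and IL1A, DKD1 was the highest and DKD2 the lowest of the 4 libraries. The growth factor CSF2 went the same way with 25.6 and 79.7 in pair 1 and 19.4 and 11 in pair 2, whereas CCL5 had 12.7 and 3.59 in pair 1 and 8.88 and 20.3 in pair 2, both named for their opposite pairs after the values were seen.

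Of the cytokine genes that agreed between pairs, IL6, which signals through gp130 and STAT3, had 185 FPKM in TRIM11-KD1, 150 in TRIM11-KD2, 116 in DKD1 and 83.1 in DKD2. IL11, of the same receptor family, had 86.3 and 72.0 in TRIM11-KD and 54.1 and 36.2 in DKD. CCL26, an eosinophil chemokine, had 6.68 and 3.02 in TRIM11-KD and 1.32 and 1.29 in DKD. These 3 were lower without overlap. CCL28, a mucosal chemokine, was higher at 2.86 and 2.80 in DKD against 0.839 and 1.25 in TRIM11-KD.

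Interferon response genes also differed by pair. Of 35 tested genes, 0 were higher and 2 lower in both pairs (IFI44 and GBP1), against 1.79% and 1.77% of all genes tested. Above 0 were 4 in pair 1 but 23 in pair 2, against 6064 and 6250 of all 11726 genes. The medians were -0.49 and 0.14, against 0.01 and 0.02 over all genes. ISG15, a ubiquitin-like modifier induced by interferon, had 197 FPKM in TRIM11-KD1 and 92.0 in DKD1 but 180 in TRIM11-KD2 and 245 in DKD2. Thus DKD1 was the lowest of the 4 libraries and DKD2 the highest. IFI44 had 7.52 and 4.58 in TRIM11-KD and 2.90 and 2.73 in DKD.

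In the list of positive regulators of cell migration, 1 of 41 tested genes (CXCR4) was lower and 0 were higher. Over all genes tested 1.77% were lower and 1.79% higher. The medians of the list were -0.01 and -0.04. CXCR4, the receptor for the chemokine CXCL12, had 27.2 FPKM in TRIM11-KD1, 7.21 in TRIM11-KD2, 12.5 in DKD1 and 0.751 in DKD2, so it was lower in each pair while the groups overlapped. MCAM, a cell adhesion molecule of the endothelium and of melanoma that the study followed as a target, had 24.2 and 20.4 in TRIM11-KD and 32.2 and 18.6 in DKD. Its pairs went in opposite directions, and the log2 difference was 0.13 (SE 0.37, unadjusted p = 0.729, adjusted p = 0.943 in limma). None of the 18 H3K4 methylation enzymes tested, KDM5C among them, passed 1.5-fold in both pairs. Of the 18, 11 were below 0 in both, against 31.9% of all genes tested.

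Gene families in clusters were lower in part. Of 368 tested genes with a ZNF name, mostly KRAB-type zinc finger repressors, 3 were higher and 21 lower in both pairs (5.71%, against 1.77% of all genes). Of the 368, 135 (36.7%) had both DKD libraries below both TRIM11-KD libraries, against 19.3% of all genes. The medians were -0.11 and -0.07. ZNF699, for instance, had 6.77 and 5.73 FPKM in TRIM11-KD and 2.47 and 3.48 in DKD, and ZNF431 had 3.34 and 4.13 in TRIM11-KD and 1.91 and 1.97 in DKD. Of 8 tested pregnancy-specific glycoproteins, immunoglobulin-like proteins of the placenta, 0 were higher and 3 lower (PSG6, PSG7 and PSG9). PSG6 had 12.5 and 16 in TRIM11-KD and 1.84 and 8.24 in DKD, without overlap. Both lists were chosen after their values were seen, and members of both families resemble each other, so reads may be split between copies. Of 13 tested replication-dependent histone genes, whose transcripts largely lack a poly(A) tail, 1 was lower in both pairs: HIST1H2BC had 16 and 13.1 in TRIM11-KD and 3.47 and 6.65 in DKD.

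Most other lists had few or no members past 1.5-fold in both pairs, where 1.79% of all genes tested were higher and 1.77% lower. There were 0 in either direction among metallothioneins, aldo-keto reductases, NRF2 targets, cholesterol synthesis, fatty acid synthesis, the Notch pathway, p53 targets, EGF ligands and receptors, heat shock genes and 31 proteasome subunits. Of 28 glycolysis and hypoxia genes only ADM was lower, with 68.6 and 76.2 FPKM in TRIM11-KD and 27.8 and 50.0 in DKD. Adrenomedullin, its product, is a vasodilator peptide induced in hypoxia. Of 26 collagen and matrix genes TNC was higher and LOX, which crosslinks collagen, was lower at 15.1 and 13.3 in DKD against 23.1 and 22.5 in TRIM11-KD. Of 21 ATF4 stress genes, PSAT1 of serine synthesis was higher, at 27.9 and 28.1 in DKD against 16.5 and 17.3 in TRIM11-KD, and CHAC1 was lower. The EMT and epithelial list had EPCAM and KRT80 higher and KRT81 and SPDEF lower among 23, the S100 list had S100A2 higher and S100A5 lower among 9, and of 6 tested cancer-testis antigens MAGEC2 was higher and MAGEA3 and XAGE1B lower. A joint entry of XAGE1B and XAGE1E went in opposite directions, with 0 and 25.1 FPKM in TRIM11-KD and 0.628 and 0 in DKD.

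**Figure D4:**
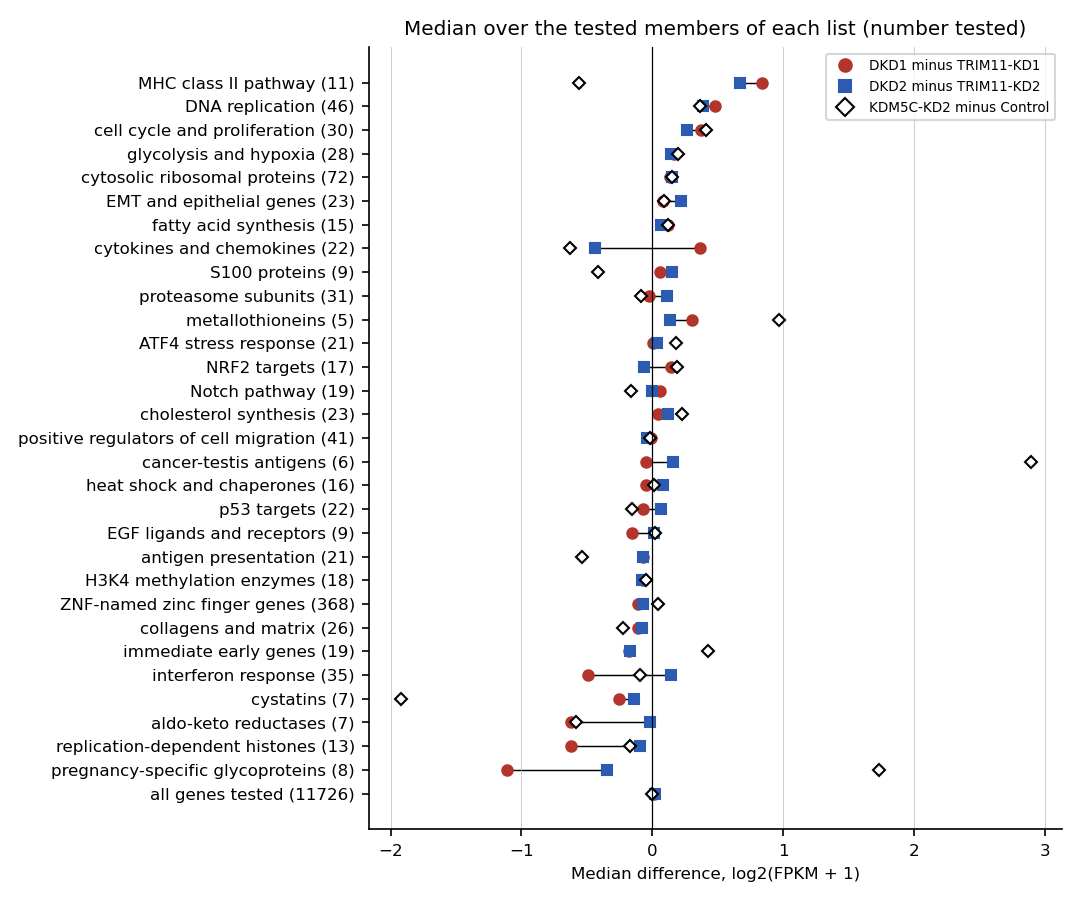
Median difference on the log2(FPKM + 1) scale (x axis) over the tested members of each gene list (y axis, number tested in brackets), with a marker each for pair 1, pair 2 and KDM5C-KD2 minus Control. The MHC class II list has medians of 0.84 and 0.67 in the pairs and -0.56 in KDM5C-KD2, and the cytokine list has 0.37 in pair 1 and -0.44 in pair 2.

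KDM5C guide 2 was also used without a TRIM11 guide, in KDM5C-KD2, and that library was set beside the pairs. Against Control, KDM5C-KD2 had 1152 higher (9.82%) and 1377 lower (11.7%) genes at 1.5-fold, with 1 library on each side. Of the 210 genes higher in both pairs, 83 (39.5%) were higher in KDM5C-KD2 and 45 (21.4%) were lower, and these are 7.2% and 3.27% of the genes higher and lower in KDM5C-KD2. Of the 207 lower genes, 85 (41.1%) were lower in KDM5C-KD2 and 41 (19.8%) were higher, which is 6.17% and 3.56% of its genes. KDM5C-KD1, with the other KDM5C guide, had 782 higher (6.67%) and 572 lower (4.88%) genes against Control. It was higher for 91 of the 210 (43.3%, and 11.6% of its higher genes) and lower for 58 of the 207 (28.0%, and 10.1% of its lower genes), and it went the other way for 16 and 23. Both comparisons share the Control library. Across genes the mean difference of the pairs correlated with that of KDM5C-KD2 with r = 0.141.

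The genes that took the same direction in all 3 settings included S100A2, CRABP2, EPCAM and MYBL2 among the higher and SAT1, CEMIP, CD24 and KLC4 among the lower. S100A2 was at 16.7 FPKM in Control and 34.4 in KDM5C-KD2, beside 10.1 to 12.5 in TRIM11-KD and 27.0 to 28.2 in DKD. CEMIP was at 54.2 in Control and 1.68 in KDM5C-KD2. CD24 was at 8.13 in Control and 0.282 in KDM5C-KD2. In both of these lower genes the difference without a TRIM11 guide was the larger one, by 2.28 (SE 0.33) for CEMIP and 1.21 (SE 0.20) for CD24 on the log2 scale in the interaction term of limma (unadjusted p = 0.00155 and 0.00293, adjusted p = 0.0864 and 0.0994). The difference within the pairs chose both genes and enters that term. CST1 showed the widest gap, with 1380 FPKM in Control, 0.907 in KDM5C-KD2 and the pair values given before.

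Class II genes took the opposite direction in KDM5C-KD2, which has no TRIM11 guide. HLA-DPA1 was at 3.91 FPKM in Control and 1.13 in KDM5C-KD2, 3.47 times lower, and at 5.31 in KDM5C-KD1. HLA-DRA was at 2.80 in Control and 0.268 in KDM5C-KD2, and CD74 at 139 and 38.3. Of the 11 tested class II genes 10 were below Control in KDM5C-KD2 and 1 above, against 50.2% below and 49.6% above of all genes. Their median was -0.56 in KDM5C-KD2 and -0.17 in KDM5C-KD1. The wider antigen presentation list, which shares members with it and includes class I, had 19 of 21 below Control in KDM5C-KD2. Its median there was -0.54, so the lower level was not particular to class II. The interaction term, which asks whether the effect of KDM5C guide 2 differs with a TRIM11 guide, was 2.67 (SE 0.18) for HLA-DPA1, 3.06 (SE 0.29) for HLA-DRA and 2.63 (SE 0.13) for CD74. With unadjusted p = 6.76e-05, 0.000252 and 1.71e-05 in limma, their adjusted p was 0.0574, 0.0641 and 0.0574. The difference within the pairs chose these genes and enters the term, so nothing is read from these p-values. This fit has 1 residual degree of freedom, and Control and KDM5C-KD2 are single libraries, so what is particular to either library cannot be told apart from the guide.

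EGR1 and DAPK1 took the opposite direction as well, from the other side. EGR1 was at 86.6 FPKM in Control and 157 in KDM5C-KD2, and DAPK1 at 13.3 and 30.5. SPOCK1 was at 4.48 in Control and 22.7 in KDM5C-KD2 while it was lower in both pairs (interaction -3.98, SE 0.22, adjusted p = 0.0574 in limma). SPOCK1 was chosen after its values were seen, and its difference within the pairs enters that term. PMP22, a myelin protein also found in epithelial junctions and chosen after its values were seen, was at 104 in Control and 253 in KDM5C-KD2, and at 105 and 103 in TRIM11-KD against 62.2 and 59.8 in DKD. For these 4 genes, then, KDM5C-KD2 was the highest library and the DKD libraries were the lowest of the 6 in that fit.

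Over all genes 2492 (21.3%) had an interaction at an unadjusted p under 0.05, 1455 above 0 (12.4%) and 1037 below (8.84%), and 1 gene (0.00853%) had an adjusted p under 0.05. That gene was AKR1C3, an aldo-keto reductase that acts on steroids and prostaglandins. It was at 29.5 FPKM in Control and 0.435 in KDM5C-KD2, but at 78.9 and 89.4 in TRIM11-KD and at 77.6 and 85.6 in DKD (interaction 4.37, SE 0.14, adjusted p = 0.0283 in limma). Within the pairs AKR1C3 was at most 1.04 times lower, while KDM5C-KD2 was 67.9 times below Control. Among the genes past 1.5-fold in both pairs, 87 of the 210 and 89 of the 207 had an interaction at an unadjusted p under 0.05. The difference within the pairs both chose these genes and enters the interaction, so nothing is read from that share.

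**Figure D5:**
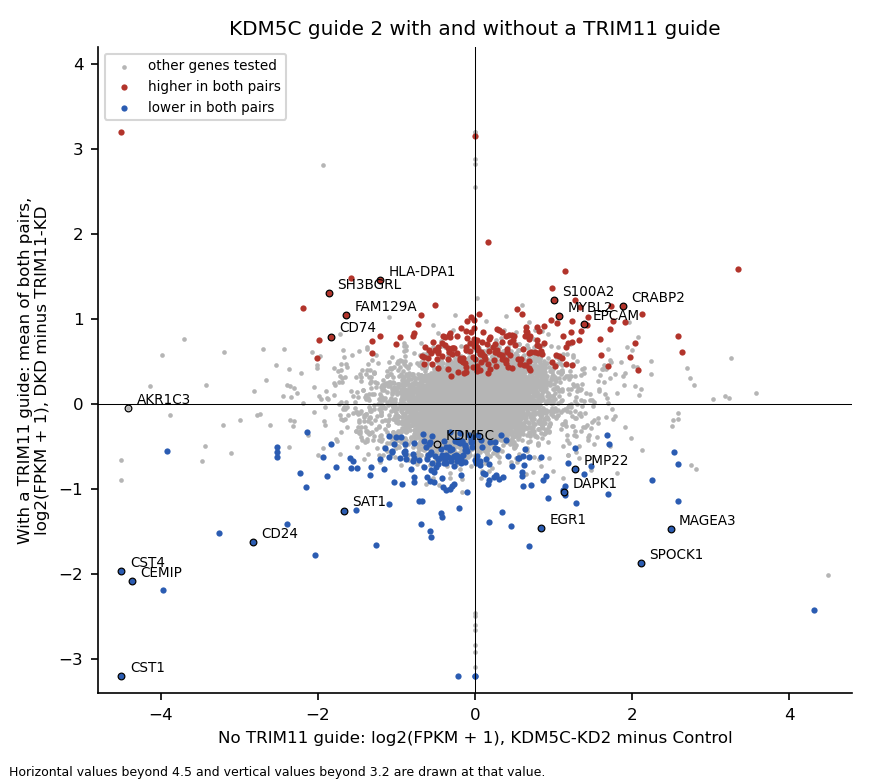
Each point is 1 gene, placed by the difference that goes with KDM5C guide 2 without a TRIM11 guide (x axis, KDM5C-KD2 minus Control, 1 library each) and with one (y axis, mean of both pairs), on the log2(FPKM + 1) scale. Of the 210 genes higher in both pairs 83 lie at 1.5-fold or more to the right and 45 to the left, the latter including HLA-DPA1, HLA-DRA and CD74.

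Position on the chromosome was looked at because KLC4 and UBR2, both among the 15 lower genes, lie near each other. KLC4, a light chain of the motor kinesin 1 (chromosome 6, 43008515 to 43042833), had 26.7 FPKM in TRIM11-KD1, 19.6 in TRIM11-KD2, 9.27 in DKD1 and 9.90 in DKD2. UBR2, an E3 ligase of the N-degron pathway (chromosome 6, 42531767 to 42661243), had 21.2 and 18.8 in TRIM11-KD and 11.1 and 9.35 in DKD. Both separated the groups. So did MRPL2 (75.9 and 75.2 against 46.7 and 43.4) and CNPY3 (66.5 and 61.4 against 40.7 and 37.2), nearby genes chosen after their values were seen. Not all genes between UBR2 and KLC4 were as low. TBCC had log2 differences of -0.11 and -0.29 in the pairs, and RRP36 had 0.06 and -0.38. The stretch from 35 to 45 Mb of chromosome 6 was chosen after these values were seen. Of its 86 tested genes 67 were below 0 in both pairs, against 31.9% of all genes tested. By 1.5-fold in both pairs 8 were lower and 1 was higher, against 1.77% and 1.79% of all genes. The medians of the stretch were -0.28 and -0.38. In 360 windows of 2.5 Mb with at least 10 genes, medians lay between -0.20 and 0.22 in pair 1 and between -0.13 and 0.15 in pair 2 from the 5th to the 95th percentile. Against Control, the same stretch had medians of -0.32 and -0.34 in KDM5C-KD and of -0.19 and -0.22 in TRIM11-KD, 4 values that share the Control library. The stretch from 45 to 50 Mb of the X chromosome was also chosen after its values were seen. Its 47 tested genes had medians of -0.42 and -0.19 in the pairs, and 36 were below 0 in both, against 31.9% of all genes tested. Against Control, the medians of the X stretch were -0.32 in KDM5C-KD1 and -0.04 in KDM5C-KD2, values that share the Control library. KDM5C lies on the same chromosome beyond this stretch, at the position given before. Whether its lower level in DKD goes with that of the stretch was not tested. DNA copy number was not analysed here.

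At the 1.5-fold limit, MAN1C1 (0.751 and 0.955 FPKM in TRIM11-KD, 1.13 and 1.84 in DKD) and CAMSAP3 were just inside among the higher genes, and PRIM1 (8.26 and 10.1 against 14.1 and 15.2) and PAOX just outside. Among the lower genes AMN1 and ULBP3 were just inside, and HDAC6 (30.3 and 27.3 against 15.8 and 18.2) and CUL7 (27.6 and 23.6 against 18.5 and 15) just outside. PRIM1, the primase subunit that starts DNA synthesis, and HDAC6, a cytoplasmic deacetylase, were thus left out although their groups did not overlap.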

How the data were processed

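Poly(A) RNA of the cell lines was sequenced from non-directional libraries as paired reads of 150 bp, so reads of a gene and its antisense partner cannot be told apart. Per the study's methods the reads were trimmed with Cutadapt, mapped with HISAT2 to hg19 and summarised with Cufflinks, and the submitters' processing notes also list Bowtie 0.12.2. The FPKM values, 1 column per library, were deposited by the authors as a table of 26006 rows, and FPKM depends on annotated transcript length and holds no read count. Rows that share a symbol were reduced to 1, and 25 symbols turned into dates were left out.

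Genes that averaged 1 FPKM or more in these 4 libraries were tested on log2(FPKM + 1), which understates differences of low genes, by limma 3.58.1 in R 4.3.3 (lmFit, eBayes with a trend). The 6 knockdown libraries entered as 3 groups, with 3 residual degrees of freedom and Benjamini-Hochberg adjustment over all genes. The interaction was fitted over Control, KDM5C-KD2 and both pairs with the TRIM11 guide as a factor. Folds within a pair are plain ratios of FPKM without a p, since each side is 1 library. Genes named are KDM5C and TRIM11, the 15 in each direction with the largest smaller difference of both pairs at a mean of at least 5 FPKM (without ribosomal protein genes, small RNAs and LOC or ENSG symbols), up to 6 list members past 1.5-fold in both pairs per list, genes the study names, and those nearest the limit, and genes outside this rule are said to be chosen after their values were seen. Members and lists were chosen with earlier results of these data known, and 5 of the lists after the values themselves were seen. Scripts were tested on simulated data. Python 3.11.15, numpy 2.4.6, pandas 2.3.3, scipy 1.17.1 and matplotlib 3.10.9 were used for the rest. Alternatives were other pseudocounts, filters, scaling, folds, libraries and blocks. Promoters and positions come from hg19 with GENCODE annotation. Some items are not reported here.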

Additional observations from a re-analysis of the deposited data

Results flagged for a closer look

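For 86 genes DKD was at least 1.5 times above, or below, TRIM11-KD in both pairs while KDM5C-KD2 was at least 1.5 times on the other side of Control: 45 of the 210 higher and 41 of the 207 lower genes. The 20 of them that the text names, leaving out genes listed at 0 in a library, are given here, with AKR1C3, whose interaction passed the adjusted threshold. SPOCK1, PMP22, KIRREL3 and HLA-DMB among them were named after their values were seen. The values are the interaction terms of limma on the log2(FPKM + 1) scale, above 0 where the pairs were the higher side. The difference within the pairs chose these genes and enters the term.

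Above 0, the class II genes had 3.06 for HLA-DRA, 2.67 for HLA-DPA1, 2.63 for CD74, 1.71 for HLA-DMB, 1.31 for HLA-DMA and 1.14 for HLA-DPB1. SH3BGRL had 3.17, FAM129A had 2.69, and GCHFR, the regulator of GTP cyclohydrolase, had 1.67. Their adjusted p lay between 0.0574 and 0.181.

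Below 0, EGR1 had -2.30, DAPK1 had -2.17, KRT81 had -1.58, ZNF114 had -1.18 and ULBP3, a ligand of the NK cell receptor NKG2D, had -1.17. SPOCK1 had -3.98, KIRREL3 had -2.35 and PMP22 had -2.04. The cancer-testis antigens MAGEA3 and XAGE1B had -3.96 and -6.74, and PSG7 had -3.14, and these 3 belong to families whose reads can be split. Their adjusted p lay between 0.0574 and 0.156. AKR1C3 had 4.37 with an adjusted p of 0.0283.

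The same Control and KDM5C-KD2 libraries enter every one of these terms, so the 21 values are not independent of each other.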

How the results depend on the processing

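The interaction fit has 1 residual degree of freedom and the groups have 2 lines, and the adjusted calls were few and moved with the setting. The 1 adjusted call became 0 at a mean FPKM of at least 5 and with only the 4 libraries, 2 without a trend, and 2 to 7 with 1 library left out. By a ratio of means of 1.5 and an unadjusted p under 0.05, 188 genes were higher and 182 lower, with 106 and 97 at a mean of at least 5 FPKM and 327 and 356 with no filter. With 1 library left out they were 86 to 350 and 71 to 296, lowest without TRIM11-KD replicate 1 and highest without TRIM11-KD replicate 2. The 210 higher and 207 lower genes of both pairs became 37 and 49 at 2-fold, 98 and 91 with a pseudocount of 1 in the ratio, 70 and 65 at a mean of at least 5 FPKM, 705 and 909 with no filter and 512 and 412 by the ratio of group means, and a single pair gave 478 to 817 and 493 to 766. The 1 adjusted interaction became 46 with a pseudocount of 0.1 and 52 after scaling by median ratios.

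The pairs share a TRIM11 guide by label but no stated parent line, and the DKD and TRIM11-KD deviations of the 2 guides correlated across genes with r = 0.369. With the TRIM11 guide as a replicate block over 4 libraries, 0 genes passed the adjusted test and 365 higher and 305 lower passed the unadjusted rule. With the block over the 6 libraries of the guide layout, 0 passed, and the log2 difference reversed for CD74 (-0.081), IL1A (-0.042), CXCL1 (-0.38), CXCL2 (-0.39), CXCL3 (-0.27) and PSG7 (0.16). That layout includes KDM5C-KD2 minus Control in the same term.

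With 1 library left out, these log2 differences changed sign. TRIM11 lay between -0.32 and 0.40, MCAM between -0.25 and 0.51, IL1A between -0.82 and 1.47, CXCL1 between -1.29 and 2.58, CXCL2 between -1.36 and 1.59, and CXCL3 between -0.83 and 1.17, each lowest without DKD replicate 1 and highest without DKD replicate 2. TRIM11, IL1A, CXCL2 and CXCL3 were also below 0 without TRIM11-KD replicate 2 (-0.11, -0.075, -0.12 and -0.20). CXCL8 (-1.67 to 1.19) and CAMSAP3 (-0.12 to 1.07) reversed without DKD replicate 2, MAGEC2 (-0.15 to 3.34), KRT81 (-2.06 to 0.13) and SPDEF (-1.69 to 0.60) without TRIM11-KD replicate 1, and SPDEF without DKD replicate 2 too (0.37). The other 929 of 949 values of named genes kept their direction, and none of these 81 genes, which do not include SNORA4 or AKR1C3, passed the adjusted test of DKD against TRIM11-KD in a setting run (lowest adjusted p = 0.183 in limma).

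The median of the antigen presentation list (-0.085) was -0.087 with a pseudocount of 0.1, -0.096 after scaling and -0.071 to -0.068 in single pairs, and that of the H3K4 enzymes (-0.091) was -0.10 with either and -0.079 to -0.069 in single pairs. Single pairs gave 0.13 to 0.30 for metallothioneins, 0.67 to 0.84 for class II, 0.39 to 0.48 for DNA replication and -0.18 to -0.17 for immediate early genes, which had -0.16 after scaling, and the ZNF list had -0.13 with a pseudocount of 0.1. The cause of these shifts was not tested.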
